A study of Mus musculus with 16 samples.

Results

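The genes that copy DNA and supply its building blocks were followed through early T cell development in mice of 2 strains. The set held 53 genes, chosen by name from the known machinery: the replicative helicase and its loaders, the polymerases and primase, the sliding clamp with its loaders, the single-strand binding protein RPA, enzymes of deoxynucleotide synthesis, chromatin assembly factors, fork proteins and the E2F activators. The rule lists gene names and uses no measured value. All 53 were found among 19531 genes with a named probe set on the array, and all 53 reached the signal needed for testing, as did 10689 genes in all. Each gene was read from its brightest probe set on the log2 intensity scale, on which a difference of 1 is a doubling.

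Double-negative thymocytes, the earliest T cells of the thymus, were sorted from mice 4 weeks old after CD4 and CD8 cells had been depleted with complement. DN4 cells were lineage-negative and lacked CD44 and CD25, and DN2-3 cells were lineage-negative, lacked CD4 and CD8 and carried CD25. The 8 groups of 2 arrays each were BDC/NOD DN4, BDC/B6g7 DN4, NOD DN4, B6g7 DN4, BDC/NOD DN2-3, BDC/B6g7 DN2-3, NOD DN2-3 and B6g7 DN2-3. The transgene (Tg) of BDC mice is the rearranged receptor of BDC2.5, a CD4 T cell clone that recognises pancreatic islets. Non-Tg mice, named by strain alone, have a polyclonal repertoire. NOD is the strain that develops autoimmune diabetes, and B6g7 is C57BL/6 with the NOD MHC haplotype H2g7, so that every group shares that MHC haplotype. All non-Tg arrays came from females, while in every BDC group 1 array was male and the other female. Separate animals are not named in the labels, so the p-values cover the spread among these samples alone, which may be technical.

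DNA replication begins at origins that the origin recognition complex (ORC), Cdc6 and Cdt1 load with the MCM2-7 helicase in the G1 phase. Cdc45, the GINS complex and Mcm10 then switch the helicase on, and polymerases, clamp and ligase copy both strands. E2F1 and E2F2 activate transcription of many of these genes as cells enter S phase. In the thymus, cells that pass the receptor checkpoint between the DN3 and DN4 stages divide rapidly, and this burst of division is a known feature of normal DN4 cells.

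The arrays were not alike in their spread of intensities. NOD DN2-3 replicate 1 had the narrowest spread of intensities, with a ratio of upper to lower quartile of 6.82. The B6g7 DN4 arrays followed with 7.60 and 7.46, and the other 13 arrays lay between 8.30 and 10.3. In NOD DN2-3 replicate 1, 41 of the 53 genes read lower than in replicate 2, and the median over all 53 was -0.25. All tested genes were shifted too, with a median level of 8.48 on replicate 1 and 8.74 on replicate 2. The share of tested genes that read lower was not counted. Among the 53, Pold1, the catalytic subunit of DNA polymerase delta, differed most, at -1.33. Counts over the 53 genes from comparisons that hold this group are given with and without the array, as are the values of genes named as leading in them. The 7 DN2-3 stage markers (Il2ra, Ptcra, Rag1, Rag2, Dtx1, Notch3 and Hes1) summed to an intensity between 4439 and 5791 on the DN4 arrays, below every DN2-3 array. Il2ra encodes CD25, on which the cells were sorted. The single markers followed the sort only in part. From DN2-3 to DN4, 6 of the 7 were lower in B6g7 and 4 in NOD, and none was higher (limma, adjusted p under 0.05). In BDC/B6g7, 4 were lower and 1 higher, and in BDC/NOD 1 was lower and 1 higher. In DN2-3 cells the sum was also split by the transgene, at 9027 to 9413 in BDC/NOD and 9417 to 9693 in BDC/B6g7, against 16597 to 17770 in NOD and 15403 to 16499 in B6g7.

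The BDC/B6g7 DN4 group stood apart from the rest and gave the lowest of the 8 group means for 50 genes. Over all tested genes, that group was lowest for 30.8%. Both of its arrays read below the other 14 arrays for 43 of the 53 genes, against 19.9% of tested genes. The exceptions to the lowest mean were Orc4, lowest in BDC/NOD DN2-3, and Orc5 and Rpa1, both lowest in B6g7 DN2-3. NOD DN4 gave the highest mean for 34 genes, against 22.2% of tested genes. Both NOD DN4 arrays read above all others for 25 of the 53, against 10.9% of tested genes. The median gene stood at 9.98 in BDC/NOD DN4, 8.85 in BDC/B6g7 DN4, 10.48 in NOD DN4 and 10.31 in B6g7 DN4. In the earlier cells it stood at 10.28 in BDC/NOD DN2-3, 10.26 in BDC/B6g7 DN2-3, 9.69 in NOD DN2-3 and 9.68 in B6g7 DN2-3. The arrays measured RNA of sorted populations, in which fewer cells of a type and less RNA per cell cannot be told apart.

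**Figure D1:**
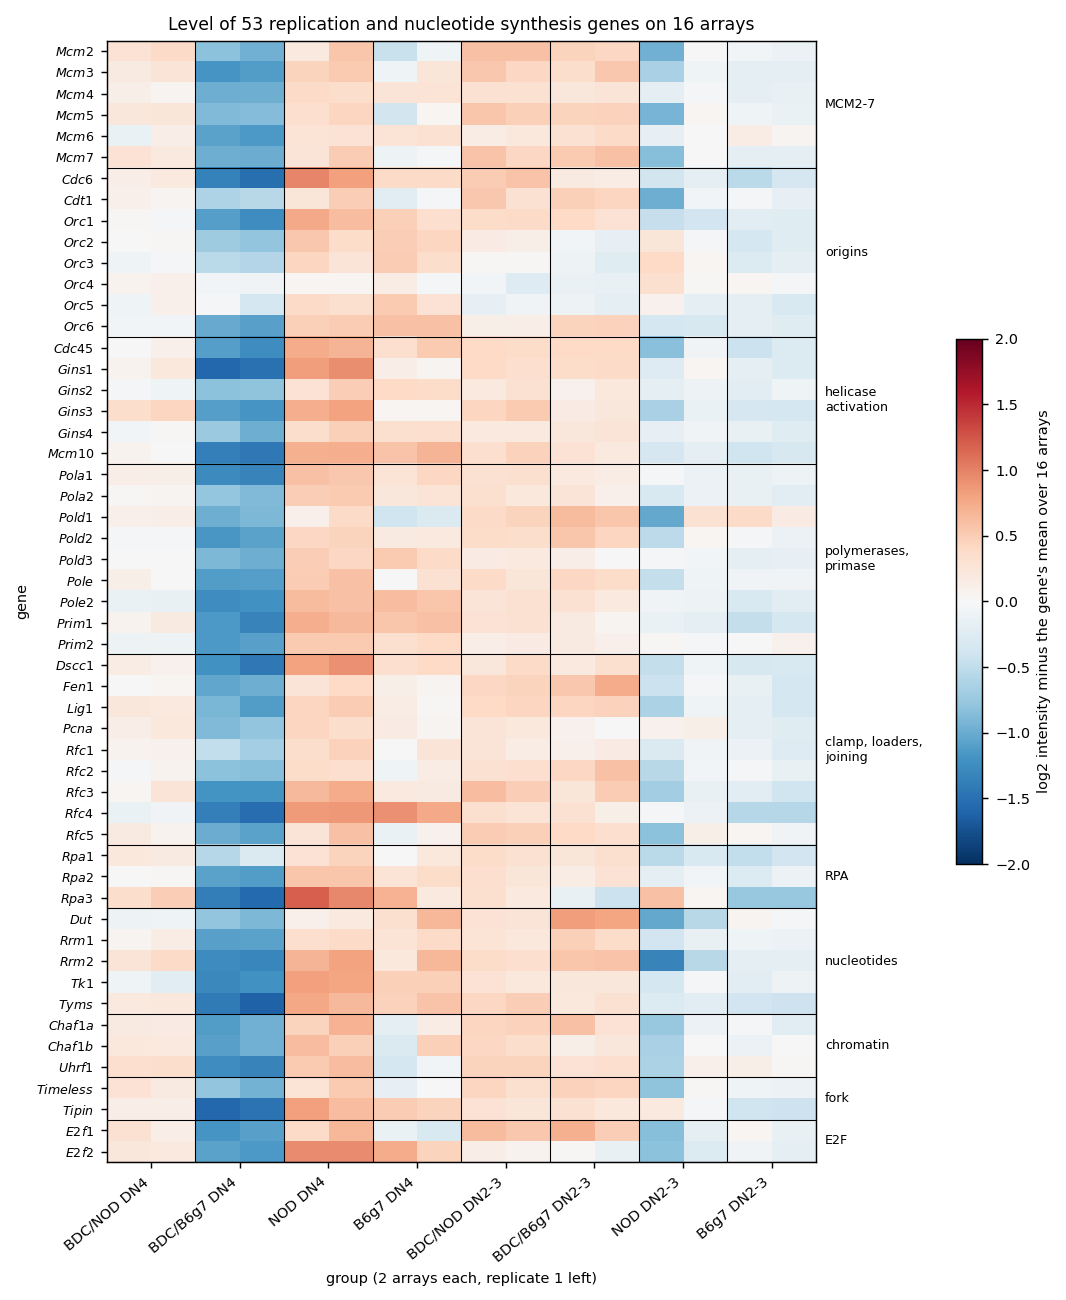
Level of each of the 53 genes (rows, grouped by role) on each of the 16 arrays (columns, by group, replicate 1 left), as log2 intensity minus the gene's mean over all arrays. The BDC/B6g7 DN4 columns are low for nearly every gene, with Orc4 and Orc5 among the rows that differ least. The mean of the NOD DN4 columns is the highest group mean for 34 genes.

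In mice without the transgene the genes rose with stage. In B6g7, 35 of the 53 were higher in DN4 than in DN2-3 and none was lower, against 17.8% of tested genes called higher and 25% called lower (limma, Benjamini-Hochberg adjusted p under 0.05 over all tested genes). The median gene differed by 0.44, and the median tested gene by -0.04. In NOD, 50 of 53 were higher in DN4, none was lower, and the median was 0.81, against 26.3% of tested genes called higher and a median of 0.10. Without NOD DN2-3 replicate 1 the NOD count was 47, all higher, and the median was 0.57. In all, 34 genes were called higher in DN4 of both strains, and 37 without that array. The 18 genes that did not pass in B6g7 included 5 of the 6 MCM2-7 subunits, all 3 chromatin genes, Cdt1, Timeless and E2f1. On NOD DN2-3 replicate 1, 17 of these 18 and 24 of the 35 that passed read lower than on replicate 2, with medians of -0.66 and -0.12 over each set. All tested genes also had a lower median level on that array, as given above. The B6g7 DN4 arrays differed for these 18 as well. On replicate 1, E2f1, Lig1 and Orc4 read higher than on replicate 2, by 0.17, 0.11 and 0.18. The rest of the 18 read lower, most of all Chaf1b, at -0.77. The part of these arrays in the difference between the strains was not tested. In the transgenic mice the stage difference ran the other way. In BDC/B6g7, 51 of 53 were lower in DN4 than in DN2-3, with a median of -1.47, against 30.4% of tested genes called lower, and 45 of the 51 fell by more than 1 log2 unit. Orc5 and Orc4, subunits of the origin recognition complex, did not pass there, at -0.04 ± 0.13 and 0.08 ± 0.11 (SE, 2 arrays a group). In all, 34 genes were higher in DN4 of B6g7 and lower in DN4 of BDC/B6g7. For the genes called in 2 comparisons at once, the share of all tested genes was not counted, so these joint counts have no background.

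In BDC/NOD the stage difference was small. The median gene differed by -0.23, 7 genes were called lower in DN4 and none higher, against 3.41% of tested genes called lower. Those 7 were Pole2 (-0.43), Tk1 (-0.40), Rfc4 (-0.39), Cdc6 (-0.38), Orc1 (-0.38), Mcm10 (-0.36) and Gins2 (-0.31), and all 7 had risen with stage in NOD mice without the transgene. The count of 7 depended on the arrays used. It was 2 and 0 without BDC/NOD DN2-3 replicate 1 and replicate 2, and 1 without either of the BDC/NOD DN4 arrays. It was 20, all lower, without either of the NOD DN2-3 arrays, which are not part of the difference itself and share the estimate of spread.

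The transgene had opposite directions at the 2 stages. In DN2-3 cells, 37 genes were higher in BDC/B6g7 than in B6g7 and none lower, against 16.8% of tested genes called higher, with a median of 0.53 against 0.03 for all tested genes. Without B6g7 DN2-3 replicate 2 this count was 22. In NOD DN2-3 cells, 43 genes were higher in BDC/NOD and 1, Orc4, was lower, against 21.5% and 14.1% of tested genes, with a median of 0.60. Without NOD DN2-3 replicate 1, 39 were higher and none lower, with a median of 0.38. Other markers moved with the transgene in the same DN2-3 cells. Of the 7 stage markers 6 were lower in BDC/B6g7 than in B6g7 (median -1.84) and 6 were lower in BDC/NOD than in NOD (median -0.92), led by Rag1 in B6g7 (-3.21 ± 0.24) and Rag2 in NOD (-2.20 ± 0.22), whose proteins together cut receptor gene segments for joining. Gamma-delta T cell markers were higher, 4 of 4 in B6g7 and 3 of 4 in NOD. The part of either list in the difference of the 53 genes was not tested. In DN4 cells the genes fell. Of the 53, 50 were lower in BDC/B6g7 than in B6g7 and none was higher, against 29.2% of tested genes called lower, with a median of -1.24, and 39 fell by more than 1 log2 unit. In NOD DN4, 30 were lower in BDC/NOD and none higher, against 14.8% of tested genes called lower, with a median of -0.42 and none past 1 log2 unit.

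The strain comparison gave most of its calls in BDC DN4 cells. There, 51 of 53 genes were higher in BDC/NOD than in BDC/B6g7 and none was lower, against 25.8% of tested genes called higher. The median gene differed by 1.16, the median tested gene by 0.05, and 38 genes were past 1 log2 unit. Orc4 (0.15 ± 0.11) and Orc5 (0.19 ± 0.13) were again the genes that did not pass. In non-Tg DN4 cells, 12 genes were higher in NOD and none lower, against 14% of tested genes called higher, a share of the 53 near that background. The median gene differed by 0.28 there, and the median tested gene by 0.13. That shift of all tested genes was 0.22 after centring each array on its median and 0.02 after quantile normalization. The count of 12 fell to 4 without B6g7 DN4 replicate 1 and to 6 and 3 without NOD DN4 replicate 1 and replicate 2. It was larger without either of the NOD DN2-3 arrays, which are not part of the difference itself and share the estimate of spread. The share of all tested genes called in those fits was not counted. In DN2-3 cells few genes passed: in non-Tg cells 6 genes were higher in NOD and 2 lower, against 5% and 5.58% of tested genes, and in BDC cells 1 was higher and 2 lower, against 3.53% and 5.66%. The non-Tg count was 3 and 4 without B6g7 DN2-3 replicate 1 and replicate 2, 5 without NOD DN2-3 replicate 1, and 31, of which 23 were lower, without NOD DN2-3 replicate 2. The BDC count was 0 without any of the 4 BDC DN2-3 arrays, and 6 and 5 without NOD DN2-3 replicate 1 and replicate 2, then mostly higher. The 12 comparisons share arrays and are not independent of each other.

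**Figure D2:**
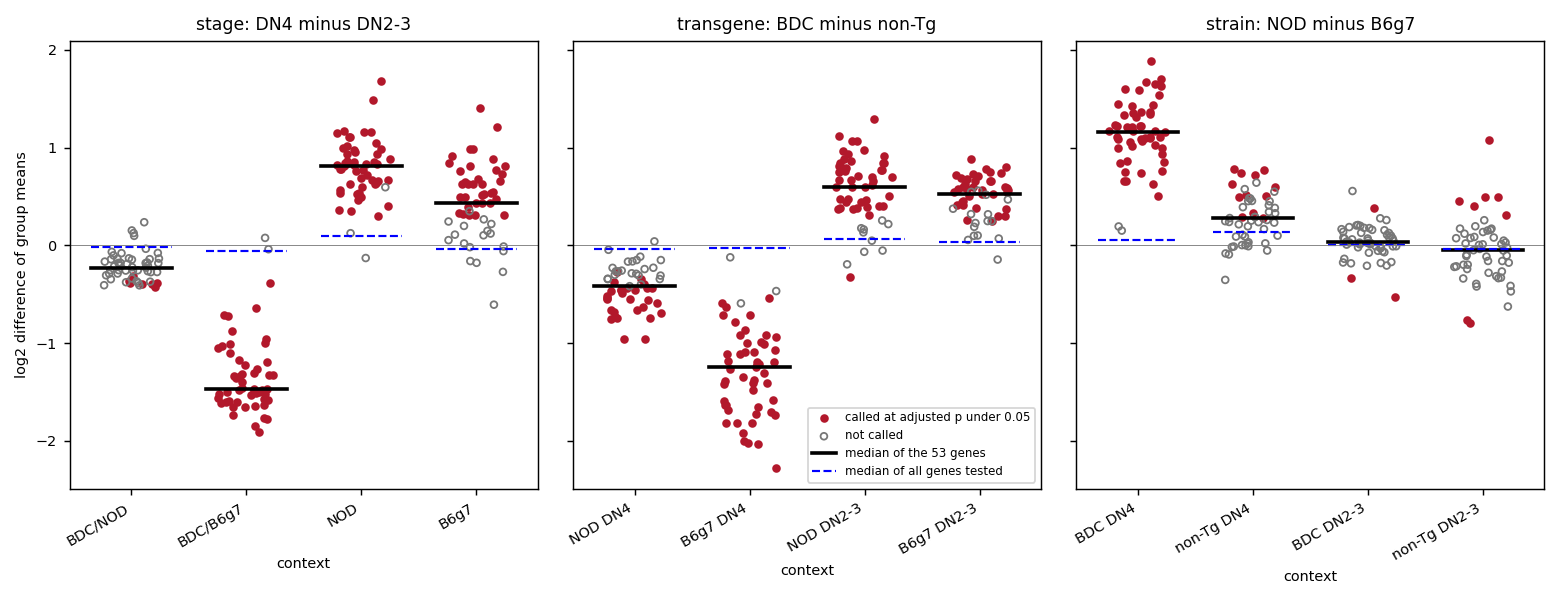
Log2 difference of each of the 53 genes in 12 comparisons (DN4 minus DN2-3, BDC minus non-Tg, NOD minus B6g7). Red filled points passed the test and open grey points did not, the black line is the median of the 53 and the blue dashed line the median of all tested genes. The 53 sit near -1.47 for stage in BDC/B6g7, near -1.24 for the transgene in B6g7 DN4 and near 1.16 for the strain in BDC DN4.

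**Figure D3:**
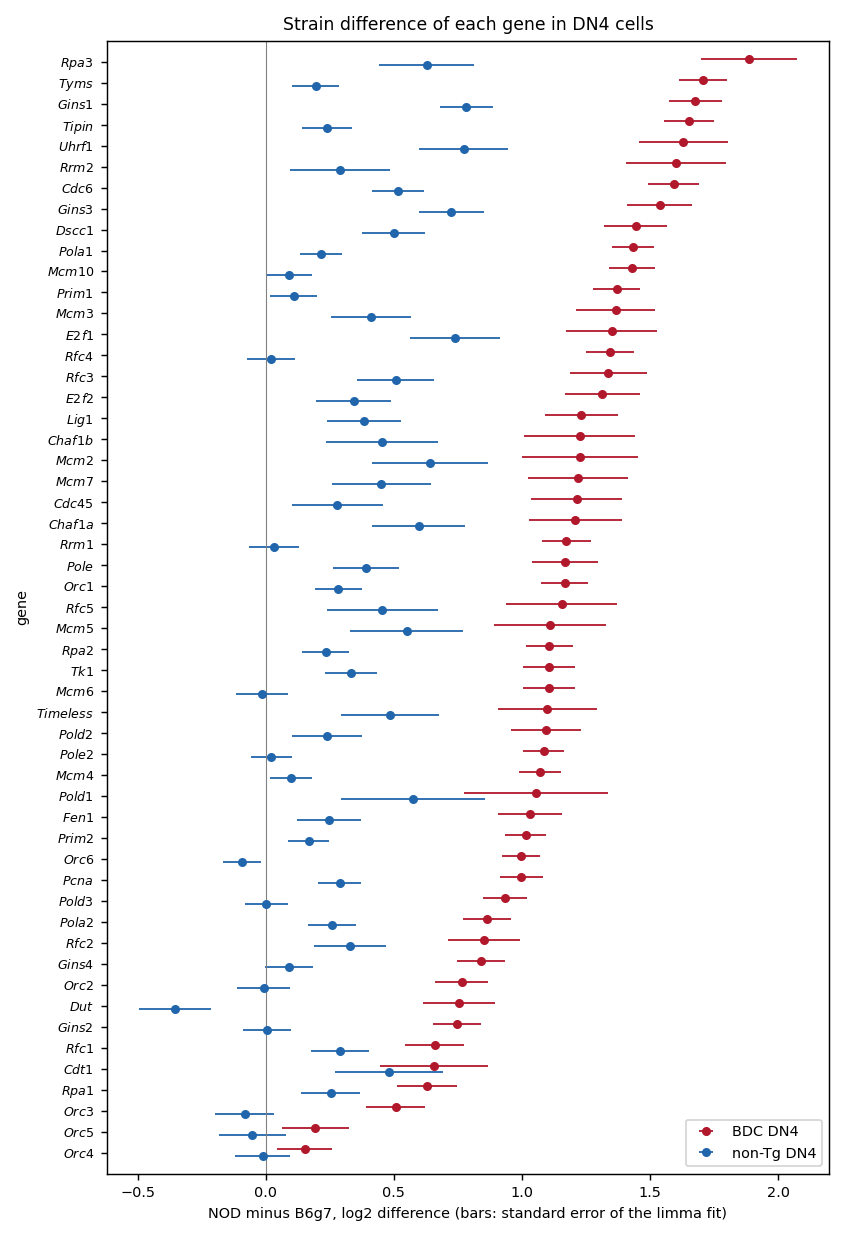
NOD minus B6g7 difference in log2 units for each gene in DN4 cells, with BDC mice in red and non-Tg mice in blue, and bars of 1 standard error of the model. In BDC mice 51 of 53 genes lie above 0 by the test, and Orc4 and Orc5 are the genes near 0 in both.

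Markers of other T lineage cells moved with the same groups. The markers of gamma-delta T cells that were matched (Sox13, Etv5, Cd163l1 and Blk, 4 of 7 listed) summed to intensities of 7886 to 8378 in BDC/NOD DN4, 13634 to 14670 in BDC/B6g7 DN4, 771 to 776 in NOD DN4 and 990 to 992 in B6g7 DN4. In DN2-3 cells they summed to 3793 to 4073 in BDC/NOD and 6084 to 6214 in BDC/B6g7, against 873 to 948 in NOD and 1070 to 1081 in B6g7. These sums were thus higher with the transgene at both stages, while most of the 53 genes were higher with it in DN2-3 cells and lower with it in DN4 cells. The group with the lowest replication genes was thus the group with the highest sum of these markers. Mature T cell markers (4 of 5 matched) summed to 2570 to 2654 in BDC/NOD DN4, 5602 to 6537 in BDC/B6g7 DN4, 1201 to 1277 in NOD DN4 and 1495 to 1587 in B6g7 DN4. Markers of CD4 CD8 double-positive cells (4 of 5 matched) ran from 1504 to 1528 in BDC/NOD DN4, 959 to 970 in BDC/B6g7 DN4, 1668 to 1858 in NOD DN4 and 3279 to 3393 in B6g7 DN4. Not all 4 went with that sum. In BDC/B6g7 DN4, 3 were lower than in B6g7 DN4 and 1, Cd1d1, was higher, at 8.91 and 8.84 against 8.23 and 8.11. In NOD DN4, 2 were lower than in B6g7 DN4 and 1, Cd4, was higher, at 8.05 and 8.42 against 7.30 and 7.46. NK cell markers, mostly Nkg7, summed to 1279 to 1311 in BDC/NOD DN4, 3457 to 3636 in BDC/B6g7 DN4, 283 to 290 in NOD DN4 and 410 to 436 in B6g7 DN4. In DN2-3 cells they summed to 1422 to 1769 in BDC/NOD, 2772 to 3354 in BDC/B6g7, 2017 to 2084 in NOD and 2401 to 2782 in B6g7, so that BDC/B6g7 came near its DN4 arrays. No marker reads 0 on an array, and the part of these cells in the differences of the replication genes was not tested.

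Promoter sequences were set beside these shared movements, since E2F proteins bind near the start of many replication genes. Windows from 250 bases before to 50 bases after the start were available for 44 of the 53 genes in the RefSeq promoter table of mouse build GRCm38.p6. Mcm4, Gins1, Gins2, Gins4, Prim2, Pole, Rfc2, Dscc1 and Tipin had no entry. The letters searched on both strands were TTTCCCGC, TTTCGCGC, TTTGCCGC and TTTGGCGC, 4 written forms of an E2F site. At least 1 of them was in the window of 17 of the 44 genes (38.6%), against 4.99% of the 8664 tested genes with a window and 2.61% of all 27025 genes with one. The letters CCAAT, a common promoter element, were on either strand in 26 of the 44 (59.1%), against 42.8% of tested genes. A match is a description of letters, and nothing was measured on the binding of any factor. Windows with and without the E2F letters went with much the same differences. The median NOD minus B6g7 difference in BDC DN4 was 1.22 for the 17 genes with the letters and 1.11 for the 27 without, and the median BDC minus non-Tg difference in B6g7 DN4 was -1.22 and -1.21. The 6 stretches below, 150 bases before to 30 bases after the start, 5′ to 3′ on the gene's strand, show the range of what was found, from 3 matches in Mcm6 to none in Tyms, the gene with the largest strain-by-transgene difference. Capitals mark the E2F letters on either strand, and the first pair in Mcm6 overlaps.
Mcm6, chr1:128359676-128359855, minus strand: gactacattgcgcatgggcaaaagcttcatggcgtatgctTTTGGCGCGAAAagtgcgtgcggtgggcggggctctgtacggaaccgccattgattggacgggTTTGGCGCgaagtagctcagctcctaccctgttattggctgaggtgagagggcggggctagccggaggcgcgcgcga
Orc1, chr4:108579304-108579483, plus strand: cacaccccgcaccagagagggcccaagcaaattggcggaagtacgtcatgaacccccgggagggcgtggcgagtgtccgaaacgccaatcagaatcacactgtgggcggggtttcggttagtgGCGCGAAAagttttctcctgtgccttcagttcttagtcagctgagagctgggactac
Rfc3, chr5:151651179-151651358, minus strand: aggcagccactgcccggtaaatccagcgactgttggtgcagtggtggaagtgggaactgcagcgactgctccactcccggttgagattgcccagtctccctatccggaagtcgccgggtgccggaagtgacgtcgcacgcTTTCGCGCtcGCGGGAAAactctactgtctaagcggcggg
Cdc6, chr11:98908001-98908180, plus strand: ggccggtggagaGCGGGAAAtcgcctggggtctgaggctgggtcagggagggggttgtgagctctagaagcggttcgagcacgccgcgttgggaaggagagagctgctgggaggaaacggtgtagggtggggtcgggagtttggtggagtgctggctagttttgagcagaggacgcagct
Gins3, chr8:95633409-95633588, plus strand: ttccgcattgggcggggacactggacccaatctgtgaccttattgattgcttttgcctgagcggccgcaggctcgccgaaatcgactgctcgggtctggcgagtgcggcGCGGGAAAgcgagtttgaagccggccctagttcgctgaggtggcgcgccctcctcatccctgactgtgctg
Tyms, chr5:30073596-30073775, minus strand: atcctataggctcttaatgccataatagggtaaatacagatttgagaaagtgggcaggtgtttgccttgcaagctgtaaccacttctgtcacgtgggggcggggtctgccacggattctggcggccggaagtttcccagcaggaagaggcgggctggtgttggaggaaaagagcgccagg

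Origin recognition and licensing genes ranged from Cdc6, with a large strain difference in BDC DN4, to Orc4, the flattest of the 53. Cdc6, an ATPase that works with ORC to load the helicase at origins, led the group. Its levels were 9.49 and 9.56 in BDC/NOD DN4, against 8.01 and 7.85 in BDC/B6g7 DN4. In the non-Tg groups it read 10.34 and 10.19 in NOD DN4, against 9.74 and 9.76 in B6g7 DN4. The 4 groups did not overlap, and BDC/B6g7 was the lowest. The strain difference was 1.59 ± 0.10 in BDC DN4 (adjusted p = 1.36e-07) and 0.52 ± 0.10 in non-Tg DN4 (adjusted p = 0.00513). Cdc6 was also the 1 gene higher in NOD in BDC DN2-3 cells, at 9.88 and 9.94 in BDC/NOD DN2-3, against 9.54 and 9.51 in BDC/B6g7 DN2-3, a difference of 0.38 ± 0.10 (adjusted p = 0.0312). Orc1, the ORC subunit whose level follows the cell cycle, had 8.51 and 8.47 in BDC/NOD DN4, against 7.40 and 7.25 in BDC/B6g7 DN4. It differed by 1.17 ± 0.09 between them, and BDC/B6g7 DN4 again lay below all other arrays. Orc6, the smallest ORC subunit, differed by 1.00 ± 0.08, Orc2 by 0.76 ± 0.10, Cdt1, the loading factor destroyed in S phase, by 0.66 ± 0.21 and Orc3 by 0.51 ± 0.11, and all 4 passed.

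Orc4, an ATPase-fold subunit of the same complex, varied least. It read 9.53 and 9.57 in BDC/NOD DN4, 9.40 and 9.40 in BDC/B6g7 DN4, 9.51 and 9.51 in NOD DN4 and 9.61 and 9.43 in B6g7 DN4. Its DN2-3 arrays lay between 9.21 and 9.78. The BDC/B6g7 arrays were the lowest of DN4 but lay within the range of the DN2-3 arrays. The range of the 8 group means of Orc4, 0.33, was the smallest of the 53. Its 1 call was the lower level in BDC/NOD DN2-3, at 9.42 and 9.21, against 9.78 and 9.49 in NOD DN2-3 (-0.33 ± 0.11, adjusted p = 0.0324), which was not called without NOD DN2-3 replicate 1 or without BDC/NOD DN2-3 replicate 2. Orc5 had the second smallest range, 0.65. It was lower in BDC/B6g7 DN4, at 8.63 and 8.30, than in B6g7 DN4, at 9.17 and 8.94 (-0.59 ± 0.13, adjusted p = 0.00156).

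The 6 subunits of the MCM2-7 ring, the motor of the replication fork, moved as a block in BDC DN4 cells. All 6 were higher in BDC/NOD than in BDC/B6g7, by 1.07 to 1.37. Mcm3 differed most, with 10.42 and 10.49 in BDC/NOD DN4, against 9.06 and 9.12 in BDC/B6g7 DN4. The pairs stood apart by over 1 log2 unit, and the difference was 1.37 ± 0.15 (adjusted p = 1.45e-05). Mcm6 read 11.23 and 11.50 in BDC/NOD DN4, against 10.30 and 10.22 in BDC/B6g7 DN4 (1.10 ± 0.10). None of the 6 differed by the test between the strains in non-Tg DN4, where Mcm6 read 11.64 and 11.65 in NOD, against 11.65 and 11.68 in B6g7. In NOD DN4, 1 of 6, Mcm4, was lower in BDC/NOD, with 11.15 and 11.08, against 11.40 and 11.37 in NOD (-0.27 ± 0.08, adjusted p = 0.0274). In B6g7 mice Mcm4 was the 1 subunit of 6 that rose with stage, with 11.28 and 11.29 in DN4, against 10.82 and 10.87 in DN2-3. Mcm2 did not pass there (-0.18 ± 0.23), with 10.54 and 10.91 in B6g7 DN4 and 10.93 and 10.87 in B6g7 DN2-3, and its DN4 arrays differed from each other by more than the group means did.

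Genes that activate the helicase moved together. All 6 were higher in BDC/NOD than in BDC/B6g7 DN4, with a median of 1.32, all 6 rose with stage in B6g7 and all 6 were lower in BDC/NOD than in NOD DN4. Gins1, a GINS subunit, showed the largest strain difference of them. It had 8.37 and 8.50 in BDC/NOD DN4, against 6.71 and 6.80 in BDC/B6g7 DN4 (1.68 ± 0.10, adjusted p = 1.09e-07). It was 9.12 and 9.21 in NOD DN4, against 8.42 and 8.35 in B6g7 DN4 (0.78 ± 0.10, adjusted p = 0.000357), the largest strain difference of the 53 in non-Tg DN4. BDC/B6g7 DN4 was lower than every other array for Gins1, by over 1 log2 unit. Gins3, a partner in the same complex, differed by 1.54 ± 0.13 in BDC DN4 and 0.72 ± 0.13 in non-Tg DN4. Gins2 and Gins4 differed by 0.75 ± 0.09 and 0.84 ± 0.09 in BDC DN4, and in non-Tg DN4 they gave 0.00 ± 0.09 and 0.09 ± 0.09, so the 4 GINS subunits spread over 0.00 to 0.78 there. Mcm10, a helicase activator, read 9.58 and 9.53 in BDC/NOD DN4, against 8.16 and 8.09 in BDC/B6g7 DN4. In non-Tg mice it read 10.23 and 10.24 in NOD DN4, against 10.09 and 10.20 in B6g7 DN4. Cdc45, the helicase cofactor, differed by 1.21 ± 0.18 in BDC DN4 and 0.28 ± 0.18 in non-Tg DN4, the second of which did not pass.

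Polymerases and primase were all higher in BDC/NOD than in BDC/B6g7 DN4, 9 of 9, with a median of 1.09. Pola1, the catalytic subunit of the polymerase that starts each DNA strand, read 10.39 and 10.38 in BDC/NOD DN4, against 8.98 and 8.93 in BDC/B6g7 DN4 (1.43 ± 0.08, adjusted p = 5.74e-08). Prim1, the catalytic primase subunit, followed with 10.06 and 10.17, against 8.83 and 8.66 (1.37 ± 0.09). In both genes the BDC/B6g7 DN4 arrays were the lowest of all 16. None of the 9 passed between the strains in non-Tg DN4, while 8 of 9 were lower in BDC/NOD than in NOD DN4. The 1 that was not, Pold1, was also the most variable. It read 9.64 and 9.67 in BDC/NOD DN4, 8.56 and 8.63 in BDC/B6g7 DN4, 9.62 and 9.91 in NOD DN4 and 9.13 and 9.24 in B6g7 DN4. In the earlier cells it read 9.91 and 9.97 in BDC/NOD DN2-3, 10.15 and 10.07 in BDC/B6g7 DN2-3, 8.50 and 9.84 in NOD DN2-3 and 9.90 and 9.69 in B6g7 DN2-3. The NOD DN2-3 arrays thus lay nearly as far apart as the extreme group means. Of the stage comparisons it passed in BDC/B6g7 (-1.52 ± 0.28, adjusted p = 0.000542). In B6g7 it gave -0.61 ± 0.28 with stage and did not pass. Pole2, the second subunit of DNA polymerase epsilon, showed the largest fall with stage in BDC/NOD, to 9.74 and 9.72 in DN4, against 10.14 and 10.18 in DN2-3 (-0.43 ± 0.08, adjusted p = 0.0038).

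**Figure D4:**
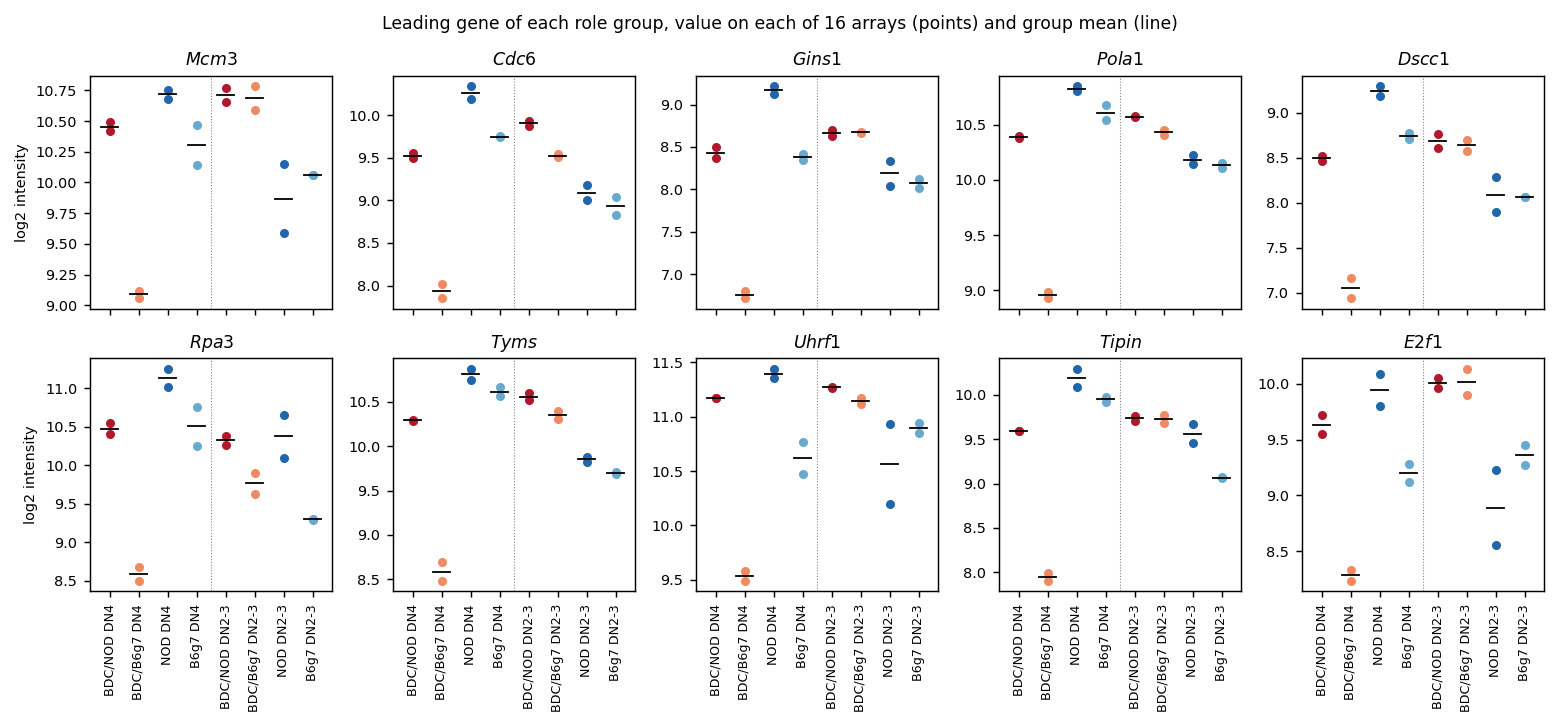
Log2 intensity on each of the 16 arrays for the gene of each role with the largest NOD minus B6g7 difference in BDC DN4, 1 panel a gene and each with its own axis range. Points are arrays and lines group means. In every panel the BDC/B6g7 DN4 points are lowest, and BDC/NOD DN4 lies above them by 1.35 to 1.89.

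The sliding clamp Pcna, its loader subunits and the joining enzymes were higher in BDC/NOD than in BDC/B6g7 DN4, 9 of 9, with a median of 1.16. Dscc1, a subunit of the alternative clamp loader used in sister chromatid cohesion, had 8.52 and 8.47 in BDC/NOD DN4, against 7.16 and 6.94 in BDC/B6g7 DN4 (1.44 ± 0.12, adjusted p = 1.37e-06). Rfc4, a subunit of the main clamp loader, read 10.99 and 11.05 in BDC/NOD DN4, 9.76 and 9.59 in BDC/B6g7 DN4, 11.96 and 11.98 in NOD DN4 and 12.03 and 11.88 in B6g7 DN4. It read 11.43 and 11.39 in BDC/NOD DN2-3, 11.42 and 11.24 in BDC/B6g7 DN2-3, 11.07 and 11.00 in NOD DN2-3 and 10.54 and 10.55 in B6g7 DN2-3. Rfc4 had the largest rise with stage in B6g7 (1.41 ± 0.09, adjusted p = 2.44e-07) and the largest transgene difference in B6g7 DN4 (-2.28 ± 0.09, adjusted p = 8.75e-10). The 2 non-Tg DN4 groups overlapped, and its strain difference there was 0.02 ± 0.09. Rfc3, whose promoter stretch holds 2 of the E2F matches above, had 9.44 and 9.65 in BDC/NOD DN4, against 8.21 and 8.21 in BDC/B6g7 DN4 (1.34 ± 0.15). Rfc1, the large subunit, differed least of the role, by 0.66 ± 0.11. Pcna read 13.03 and 13.11 in BDC/NOD DN4, against 12.02 and 12.12 in BDC/B6g7 DN4 (1.00 ± 0.08). The other probe set of Pcna gave 13.03 and 13.10, against 12.03 and 12.11. Fen1 and Lig1, the nuclease and the ligase that finish the lagging strand, differed by 1.03 ± 0.12 and 1.23 ± 0.14.

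RPA coats single-stranded DNA at the fork as a complex of 3 subunits, and its genes did not move in equal measure. Rpa3, the smallest subunit, gave the largest strain difference of the 53 in BDC DN4, with 10.40 and 10.54 in BDC/NOD, against 8.68 and 8.50 in BDC/B6g7 (1.89 ± 0.19, adjusted p = 4.6e-06). The other probe set of Rpa3 gave a smaller gap, with 8.73 and 9.11, against 7.62 and 7.52. The first rank is thus that of the brightest probe set. On this probe set Rpa3 also led in non-Tg DN2-3, with 10.65 and 10.10 in NOD, against 9.29 and 9.30 in B6g7 (1.08 ± 0.19, adjusted p = 0.00236). That difference was 0.81 ± 0.18 without NOD DN2-3 replicate 1 (adjusted p = 0.00893). In non-Tg DN4 it read 11.25 and 11.01 in NOD, against 10.76 and 10.25 in B6g7 (0.63 ± 0.19, adjusted p = 0.0349). In BDC DN2-3 the values were 10.38 and 10.26 in BDC/NOD, against 9.90 and 9.63 in BDC/B6g7, and the difference of 0.56 ± 0.19 did not pass. Both NOD arrays thus read above both B6g7 arrays at each stage and genotype. Rpa2 differed by 1.11 ± 0.09 in BDC DN4 and by 0.08 ± 0.09 in non-Tg DN2-3. Rpa1, the large DNA-binding subunit, differed by 0.63 ± 0.12 in BDC DN4. It was lowest in B6g7 DN2-3, at 9.59 and 9.69, and close to this in BDC/B6g7 DN4, at 9.51 and 9.78.

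All 5 genes of deoxynucleotide synthesis fell with stage in BDC/B6g7 and rose with stage in B6g7 and NOD. Tyms, thymidylate synthase, read 10.28 and 10.30 in BDC/NOD DN4, 8.69 and 8.48 in BDC/B6g7 DN4, 10.87 and 10.75 in NOD DN4 and 10.56 and 10.66 in B6g7 DN4. In the earlier cells it read 10.52 and 10.60 in BDC/NOD DN2-3, 10.31 and 10.40 in BDC/B6g7 DN2-3, 9.83 and 9.88 in NOD DN2-3 and 9.71 and 9.69 in B6g7 DN2-3. Within DN2-3 the transgenic arrays were all above the non-Tg ones, and within DN4 they were all below them. The strain difference was 1.71 ± 0.09 in BDC DN4, a 3.26-fold higher intensity (adjusted p = 4.1e-08), and 0.20 ± 0.09 in non-Tg DN4, which did not pass. Rrm2, the regulated subunit of ribonucleotide reductase, had 11.19 and 11.33 in BDC/NOD DN4, against 9.68 and 9.63 in BDC/B6g7 DN4 (1.60 ± 0.20, adjusted p = 2.65e-05). Its rise with stage in NOD was the largest of the 53, with 11.61 and 11.74 in DN4, against 9.61 and 10.39 in DN2-3 (1.68 ± 0.20), and the NOD DN2-3 arrays lay as far from each other as the NOD and B6g7 DN2-3 means did. The rise of Rrm2 was 1.29 ± 0.14 without NOD DN2-3 replicate 1, and still the largest. Dut, the dUTPase that keeps uracil out of DNA, was lower in NOD in DN2-3 cells, with 8.65 and 9.12 in NOD, against 9.72 and 9.63 in B6g7 (-0.79 ± 0.14, adjusted p = 0.00274), or -0.56 ± 0.12 without NOD DN2-3 replicate 1. It was lower in BDC/NOD too, with 9.96 and 9.93, against 10.50 and 10.45 in BDC/B6g7 (-0.53 ± 0.14, adjusted p = 0.0303). In BDC DN4 it was higher in BDC/NOD, with 9.56 and 9.59, against 8.87 and 8.77 in BDC/B6g7 (0.75 ± 0.14). Tk1, thymidine kinase, was lower in BDC/NOD DN4, at 9.77 and 9.65, than in NOD DN4, at 10.68 and 10.65 (-0.96 ± 0.10, adjusted p = 2.6e-05). This and the -0.96 ± 0.09 of Rfc4 were the largest falls of the 53 with the transgene in NOD DN4.

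The 3 chromatin genes, both E2F activators and both fork protection genes were all higher in BDC/NOD than in BDC/B6g7 DN4. Uhrf1, the partner of the maintenance DNA methyltransferase, read 11.17 and 11.17 in BDC/NOD DN4, against 9.58 and 9.49 in BDC/B6g7 DN4 (1.63 ± 0.17, adjusted p = 9.11e-06). In non-Tg DN4 it read 11.35 and 11.44 in NOD, against 10.48 and 10.77 in B6g7 (0.77 ± 0.17, adjusted p = 0.0109). Chaf1a, the large subunit of the chromatin assembly factor CAF-1, differed by 1.21 ± 0.18 in BDC DN4 and 0.60 ± 0.18 in non-Tg DN4, and Chaf1b by 1.23 ± 0.22 and 0.45 ± 0.22, the last of which did not pass. None of the 3 was lower by the test in BDC/NOD than in NOD DN4. E2f1 had 9.72 and 9.55 in BDC/NOD DN4, against 8.23 and 8.33 in BDC/B6g7 DN4 (1.35 ± 0.18, adjusted p = 4.8e-05). It had 9.80 and 10.08 in NOD DN4, against 9.29 and 9.12 in B6g7 DN4 (0.74 ± 0.18, adjusted p = 0.0145). In DN2-3 cells it was 1.12 ± 0.18 higher in BDC/NOD than in NOD, with 10.06 and 9.96, against 8.56 and 9.22 in NOD DN2-3, and 0.79 ± 0.14 higher without NOD DN2-3 replicate 1. E2f2 differed by 1.31 ± 0.15 in BDC DN4 and 0.34 ± 0.15 in non-Tg DN4, the second of which did not pass. Of the fork protection pair, Tipin had 9.60 and 9.60 in BDC/NOD DN4, against 7.90 and 7.99 in BDC/B6g7 DN4 (1.65 ± 0.10, adjusted p = 7.63e-08). Its partner Timeless had 8.87 and 8.75, against 7.78 and 7.64 (1.10 ± 0.19). Both pairs stood apart by over 0.9.

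The differences between differences were tested in the same model. The strain difference in DN4 was larger in BDC than in non-Tg mice for 38 genes and smaller for none, with a median of 0.85, against 9.2% of tested genes called larger. Tyms (1.51 ± 0.13), Tipin (1.41 ± 0.14) and Mcm10 (1.34 ± 0.13) led. The genes whose non-Tg strain difference was largest were not all among the 38: E2f1 gave 0.61 ± 0.25 and Chaf1a 0.61 ± 0.26, which did not pass. In DN2-3 no gene passed, 3 had an unadjusted p under 0.05, and 1.15% of tested genes were called in either direction. Without NOD DN2-3 replicate 1 again none passed, and without replicate 2, 22 passed, 18 of them larger in BDC. The stage difference was lower in BDC than in non-Tg mice for 51 genes in B6g7 (median -1.72, against 27% of tested genes called lower) and for 48 in NOD (median -1.03, against 20.5%). Rfc4 led in B6g7, at -3.07 ± 0.13, and Rrm2 in NOD, at -1.71 ± 0.28. Without NOD DN2-3 replicate 1 the NOD count was 50 with a median of -0.82, and Cdc6 led at -1.47 ± 0.14, with Rrm2 at -1.32 ± 0.18. The stage difference was higher in NOD than in B6g7 for 48 genes in BDC mice, led by Rrm2 at 1.81 ± 0.28 (median 1.19, against 12.2% called higher). In non-Tg mice it was higher for 8 genes, led by E2f1 at 1.21 ± 0.25, and lower for 1, Rfc4 at -0.47 ± 0.13, against 7.33% and 1.71% of tested genes. The median of the 53 was 0.36 there and that of all tested genes 0.16. Without NOD DN2-3 replicate 1 the median was 0.20, E2f1 gave 0.88 ± 0.18 and Rfc4, at -0.44 ± 0.14, did not pass. The count of 9 was 24, of which 21 were higher, with the replicate number as a block within each strain and genotype. It was 4 without NOD DN2-3 replicate 1 and 35 without replicate 2, was 0 to 2 without any other array except B6g7 DN4 replicate 2, and so rested on individual arrays.

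Other genes of the same processes moved with the 53 in BDC DN4. Of all 10689 tested genes, 25.8% were called higher in BDC/NOD there and 1631 were called lower. Of 35 further replication genes tested, 30 were higher and 1 lower in BDC/NOD than in BDC/B6g7 DN4, with a median of 0.85. Hells, a chromatin remodelling helicase (1.73 ± 0.08), and Chek1, the replication checkpoint kinase (1.64 ± 0.09), were among the largest. Of 31 further nucleotide synthesis genes, 23 were higher and 2 lower, with a median of 0.79. Of 25 mitosis genes all 25 were higher, with a median of 1.05, and the proliferation marker Mki67 read 11.54 and 11.49 in BDC/NOD DN4, against 10.48 and 10.50 in BDC/B6g7 DN4 (1.03 ± 0.09, adjusted p = 1.12e-06). Of 13 G1 cyclins, kinases and inhibitors, 7 were higher and 2 lower, with Ccne2, a cyclin of the entry into S phase, at 1.95 ± 0.17. Of 11 other E2F and pocket protein genes, 7 were higher and 1 lower, with E2f8, an atypical E2F repressor, at 1.59 ± 0.17. The median of the 53, 1.16, was above those of all 5 lists, and no test between lists was made.

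The same lists were followed with the transgene and with stage in B6g7 mice. In DN4, 29 of 35 replication genes, 23 of 31 nucleotide synthesis genes, 25 of 25 mitosis genes, 7 of 13 G1 genes and 6 of 11 E2F and pocket protein genes were lower in BDC/B6g7 than in B6g7, against 29.2% of all tested genes. With stage in B6g7, 23 of 35, 6 of 31, 22 of 25, 5 of 13 and 5 of 11 were higher in DN4, against 17.8% of tested genes, and the share of the nucleotide synthesis genes was near that background. With stage in BDC/B6g7, 32 of 35, 26 of 31, 25 of 25, 8 of 13 and 7 of 11 were lower in DN4, against 30.4% of tested genes. In DN2-3 cells of B6g7, 19 of 35, 15 of 31, 21 of 25, 6 of 13 and 1 of 11 were higher with the transgene, against 16.8% of tested genes, and Asf1b, a histone chaperone, was higher by 1.80 ± 0.12 there. A pair of nucleotide genes ran against the rest in DN4. Samhd1, the enzyme that breaks deoxynucleotides down, read 6.78 and 7.05 in BDC/NOD DN4, 9.92 and 10.49 in BDC/B6g7 DN4, 5.85 and 5.83 in NOD DN4 and 6.11 and 5.79 in B6g7 DN4. Its DN2-3 arrays lay between 6.24 and 6.86, so that both BDC/B6g7 DN4 arrays stood above all others. It was 4.26 ± 0.17 higher in BDC/B6g7 than in B6g7 DN4 (adjusted p = 6.16e-10) and differed by -3.29 ± 0.17 between BDC/NOD and BDC/B6g7 DN4 (adjusted p = 2.95e-08). Tk2, the mitochondrial thymidine kinase, was higher with the transgene in B6g7 DN4 by 1.78 ± 0.12 and in NOD DN4 by 0.86 ± 0.12. The group in which Samhd1 was highest, and in which the 5 synthesis genes of the set were lowest, was the one with the highest gamma-delta and mature T cell marker sums among DN4 cells, and the part of those cells was not tested.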

How the data were processed

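RNA of 16 sorted thymocyte samples was extracted with Trizol and hybridized to Affymetrix Mouse Gene 1.0 ST arrays, per the labels. The deposited values are intensity values on a linear scale (5.82 to 21466 over 25108 probe sets). They were made by the authors with RMA in Affymetrix Power Tools, per the submitters' processing notes, with versions not given in the sources used here. Deposited intensity was converted to log2 without a pseudocount. A single symbol named 21157 probe sets, several symbols 1341 and none 2610. Each gene was read from its brightest probe set. Testing needed a highest group mean of at least 7.05 log2 (132.9 in intensity), the median of the named probe sets. The test was limma 3.58.1 in R 4.3.3, with lmFit on the 8 group means, eBayes (8 residual and 5.06 prior degrees of freedom), two-sided, and Benjamini-Hochberg adjustment over 10689 genes at 0.05. Errors are standard errors of this model. The number of arrays limits the precision. The script was tested on simulated data.

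The members, gene lists and tests were chosen with earlier results of these data known. Any of the 53 genes could be named. Array values were given for the leader of each role, for the largest changes and for genes that went against the majority, and other lists gave up to 3 genes a comparison beside Samhd1 and Mki67. Alternatives were another normalization, centring, other filters, the mean of probe sets, a replicate block, sex, fewer groups or arrays. Replicate numbers were shared across groups. Deviations of same-numbered samples correlated at 0.10 to 0.58 between the 2 stages of one strain and genotype, above 0.1 in 4 of 4, and at -0.25 to 0.41 over the other 24 pairs of groups, above 0.1 in 8. Sex also matched by number, and the labels do not say whether the stages share animals. The stage comparisons were fitted unpaired, and again with the number as a block within strain and genotype, an alternative chosen after seeing the data.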

Additional observations from a re-analysis of the deposited data

Results flagged for a closer look

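Effects that differed between groups by a test of the difference itself (limma interaction terms) are collected here, with no explanation weighed. The NOD minus B6g7 difference in DN4 cells was larger in BDC than in non-Tg mice for 38 of the 53 genes, with Tyms at 1.51. The DN4 minus DN2-3 difference was lower in BDC than in non-Tg mice for 51 genes in B6g7, with Rfc4 at -3.07, and for 48 genes in NOD, with Rrm2 at -1.71. The DN4 minus DN2-3 difference differed between NOD and B6g7 for 9 genes in non-Tg mice, with E2f1 at 1.21, and for 48 in BDC mice, with Rrm2 at 1.81. The 9 calls in non-Tg mice were 0 to 35 when 1 array was left out and 24 with a replicate block within strain and genotype. Groups of 2 arrays are too small for a search for outlying samples.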

How the results depend on the processing

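Counts of the 53 genes called are given here by setting. Counts over all tested genes were made for quantile normalization and centring alone. With only the compared groups in the fit, the stage count was 15 in NOD and 30 in BDC/NOD, the transgene count in NOD DN2-3 was 2, the strain count was 0 in non-Tg DN2-3 and 20 in non-Tg DN4, and the stage-by-strain count in non-Tg mice was 0. Quantile normalization again gave 13 for stage in BDC/NOD, 7 for strain in non-Tg DN4 and 3 for stage by strain in non-Tg mice, and centring gave 1, 21 and 21. Over all tested genes, in the same order, quantile normalization again called 844 higher and 518 lower, 733 and 613, and 244 and 141. Centring called 799 and 221, 2378 and 318, and 2502 and 133. The median tested gene after centring stood at 0.02, 0.22 and 0.30. The stage-by-strain count of the 53 in non-Tg mice was 4 with no filter and 2 with sex as a term. Without the 4 male arrays, which leaves each BDC group 1 array assumed to vary like the others, counts were 0 for stage in BDC/NOD, 9 and 11 for the transgene in DN2-3 of B6g7 and NOD, 10 for it in NOD DN4, 2 and 0 for strain in non-Tg and BDC DN2-3, 2 for strain in non-Tg DN4, 17 for strain by transgene in DN4, 20 for stage by transgene in NOD, and 0 and 1 for stage by strain in non-Tg and BDC mice. The larger counts held there: 40 for strain in BDC DN4, 47 for stage in BDC/B6g7 and 46 for the transgene in B6g7 DN4. The cause of these changes was not tested, beyond the smaller number of arrays.

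With each array left out in turn, counts ranged for stage over 27 to 39 (B6g7), 42 to 50 (NOD), 50 to 51 (BDC/B6g7) and 0 to 20 (BDC/NOD). For the transgene they ranged over 22 to 46 (B6g7 DN2-3), 37 to 46 (NOD DN2-3), 48 to 52 (B6g7 DN4) and 20 to 42 (NOD DN4). For strain they ranged over 3 to 31 (non-Tg DN2-3), 0 to 6 (BDC DN2-3), 3 to 34 (non-Tg DN4) and 49 to 51 (BDC DN4). The majority direction reversed in non-Tg DN2-3 without NOD DN2-3 replicate 2 (31 called) and in BDC DN2-3 without replicate 1 or 2 of that group (6 and 5 called). For strain by transgene the ranges were 0 to 22 (DN2-3) and 34 to 48 (DN4), for stage by transgene 51 to 52 (B6g7) and 43 to 50 (NOD), and for stage by strain 0 to 35 (non-Tg) and 41 to 50 (BDC). No difference of a named gene changed sign while called. With the replicate number as a block, counts were 51 for strain in BDC DN4, 50 for the transgene in B6g7 DN4, 8 for stage in BDC/NOD and 12 for stage by strain in non-Tg mice, and this block moved no count by more than 1.5 times. With the number as a block within each strain and genotype (4 residual degrees of freedom), stage counts were 37 in B6g7, of which 1 was lower, 51 in NOD, 51 in BDC/B6g7 and 9 in BDC/NOD. Stage-by-transgene counts were 52 in B6g7 and 50 in NOD, and stage-by-strain counts were 50 in BDC mice and 24 in non-Tg mice, the 1 count this block moved by more than 1.5 times. Over all genes, the split of calls in the stage comparison of NOD moved with the scaling, to 2009 higher and 1681 lower after quantile normalization and 3697 and 868 after centring.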
